A study of Mus musculus with 43 samples.

Results

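Levels of nuclear RNA were set against the accessibility of chromatin at gene starts in cortical neurons of standard housed (SH) mice, gene by gene. The 22 SH libraries among the series' 43 libraries were used, and no comparison between housing conditions was made. Of the 53379 genes in the RNA table, the 49158 on autosomes were taken. For each of them the mean RNA level was paired with the mean accessibility of the deposited ATAC regions that reached within 1000 bases of its start, its promoter accessibility. The pairing was made separately in females and in males.

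The study took frontal cortex from wildtype Swiss Webster mice that were weaned at postnatal day 25 and then kept in standard cages or in environmental enrichment until 2 months of age. Tissue was fixed with paraformaldehyde, and nuclei stained for the neuronal protein NeuN were sorted. Sorted nuclei gave either nuclear RNA-seq libraries, counted over exons and introns, or ATAC-seq libraries, in which a transposase inserts adapters where DNA is open. The SH groups were 6 RNA and 3 ATAC libraries from females and 6 RNA and 7 ATAC libraries from males, all wildtype and of the same age, with no transgene named. The labels do not say that replicates came from separate animals, so the SD given is the spread between libraries. The sexes were also run under different run names, and sex cannot be told apart from run.

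At an active start, nucleosomes give way to transcription factors and RNA polymerase II, which leaves DNA open to a transposase. Many mammalian starts lie in CpG islands, stretches rich in the dinucleotide CG that tend to be accessible in every tissue, and many neuronal genes use several starts far apart. RNA in the nucleus is largely unspliced, so a long gene collects reads along its introns, and its level reflects synthesis, processing and decay within the nucleus.

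Levels are counts per M (mega) counts of the library (CPM), as mean ± SD over libraries unless said otherwise. RNA is also given per kb of gene length, from the start to the end in the table. Where per kb is not stated, shares by RNA level, correlations, thresholds and rankings use plain CPM, which is not corrected for length. Totals ran from 10.6 to 13.2 M counts in the female RNA libraries, 11.7 to 14.6 M in the male ones, 19.1 to 23.8 M in the female ATAC libraries and 27.7 to 73.8 M in the male ones. The 5 neuronal markers (Rbfox3, Snap25, Syt1, Map2 and Celf4) all reached 1 CPM and had an accessible region at the start in both sexes, with a summed RNA level of 8491 to 8876 CPM in females and 7921 to 8372 CPM in males. The summed level of 5 astrocyte markers was 31.8 to 147 CPM in females and 33.9 to 52.3 CPM in males, and that of 5 microglial markers 4.82 to 21.8 CPM and 6.81 to 12.2 CPM. Female RNA replicate 2 held the highest of the 6 female values for the astrocyte, oligodendrocyte, microglial and vascular sums. It also held the highest for the sum of 4 inhibitory neuron markers, at 182 CPM against a female median of 115 CPM. In bulk nuclei, fewer cells of a type and less RNA per cell cannot be told apart.

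The share of genes with a region at the start rose with RNA level from 0.1 CPM and levelled off above 10 CPM. An accessible region lay at the start of 16.5% of genes with no RNA count in any female library and of 18.9% at over 0 to 0.1 CPM. The share was 36.2% at 0.1 to 1 CPM, 75.1% at 1 to 10 CPM, 93.2% at 10 to 100 CPM and 94.8% at 100 CPM and above. In males the same shares were 24.9%, 23.4%, 43.6%, 80.6%, 95.0% and 96.2%. Among genes with a region, the median promoter accessibility was 5.19 CPM in the genes without an RNA count and 17.1 CPM in those of 100 CPM and above in females, and 4.90 and 23.9 CPM in males. Between these, at 1 to 10 and 10 to 100 CPM of RNA, it was 13.2 and 16.5 CPM in females and 12.5 and 18.2 CPM in males. Protein-coding genes listed without any RNA count broke this order. Those of them with a region had a median promoter accessibility of 10.8 CPM in females and 8.91 CPM in males, above the 4.93 and 3.83 CPM of coding genes at over 0 to 0.1 CPM. Many such genes are covered by a same-strand gene, where a count of 0 cannot be read as absence of RNA. Of those with a region in both sexes and 0 in every library, 237 were covered over at least 50% of their length and 83 had no same-strand overlap.

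Among expressed coding genes ranked by RNA per kb, promoter accessibility differed mostly between the lowest levels and the rest. Coding genes of at least 1 CPM were split into 10 bins of equal size by RNA CPM per kb. In females the median promoter accessibility rose from 5.23 CPM in the lowest bin to 14.8 CPM in bin 3 and 16.5 CPM in bin 4, and stood at 19.4 CPM in the highest. In males it rose from 6.08 CPM in the lowest bin to 15.6 CPM in bin 3 and 21.7 CPM in the highest. Ranked by RNA CPM without the length, the male medians rose through all levels, from 9.12 CPM in the lowest bin to 13.2 in bin 3, 18.1 in bin 7 and 24.7 in the highest, and the female ones were 11.1, 14.4, 17.01 and 17.2 CPM. Median RNA per kb over the same bins ran from 0.041 to 2.78 CPM per kb in females. Regions were wider in the highest bin, with a median of 1463 bases against 633 in the lowest in females and 3149 against 1288 in males. Promoter accessibility per kb of region did not keep rising: in females it was 12.7 CPM per kb in bin 3 and 12.2 in the highest, and in males 7.56 and 6.51.

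**Figure D1:**
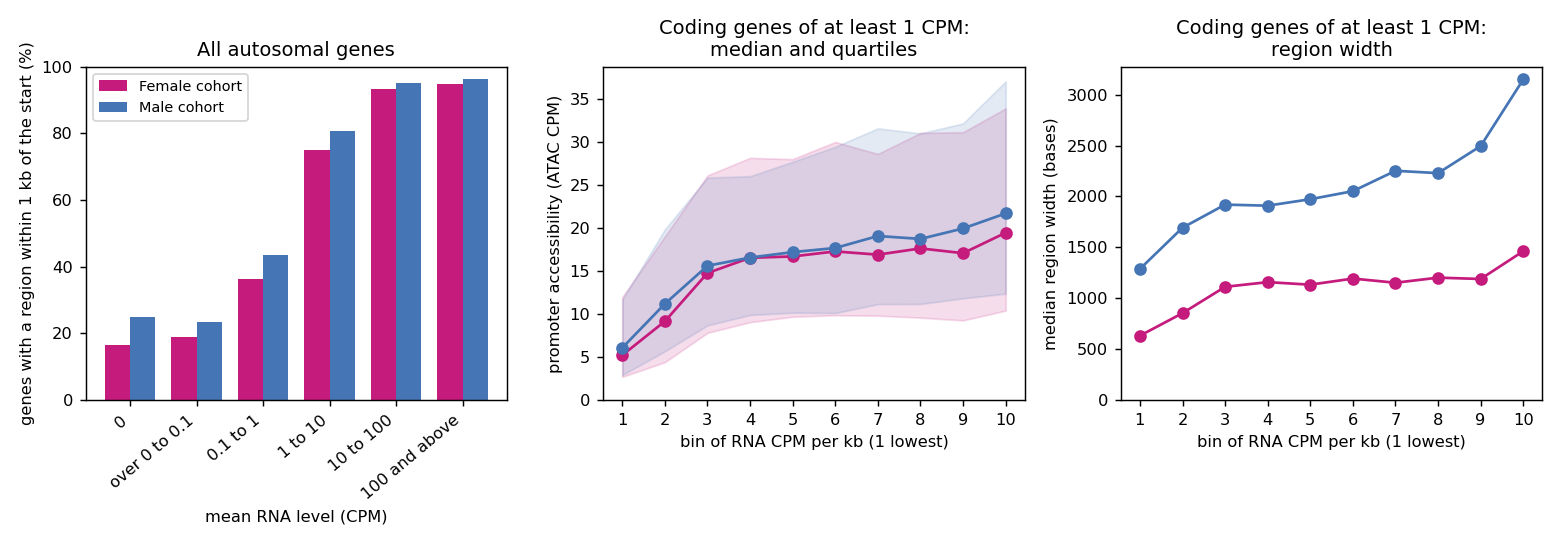
Left, percentage of autosomal genes with an accessible region within 1 kb of the start (vertical axis) by mean RNA CPM (horizontal axis), females and males side by side. Middle, median promoter accessibility in ATAC CPM with the quartiles shaded, and right, median region width in bases, for coding genes of at least 1 CPM in 10 bins of equal size by RNA CPM per kb: the medians climb steeply over the first 3 bins and slowly after that, while width climbs again in the highest bin.

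Across the 19085 genes with a region in females, Spearman's rho between RNA CPM and promoter accessibility was 0.340 (Pearson's r 0.327 on log2(CPM + 0.1)). Across 22487 genes in males, rho was 0.436 (r 0.430). These correlations are across genes, which are not independent replicates and share libraries, and neighbouring genes can share a region. Single libraries gave nearly the same value, with rho from 0.329 to 0.348 for any 1 female library set against the mean of the other assay and from 0.414 to 0.444 in males. Without female RNA replicate 2, the female rho was 0.343. Within genes of at least 1 CPM, rho dropped to 0.132 in females (11475 genes) and 0.284 in males (12131 genes). Promoter accessibility followed the width of the region far more closely than it followed RNA, with a rho of 0.895 in females and 0.884 in males. It is a count over the region that is not divided by width, so a relation to width is built into the measure. RNA CPM of expressed coding genes followed gene length (rho 0.603 and 0.558), whereas promoter accessibility did not (-0.086 and 0.038).

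The RNA tables of the sexes ranked genes almost identically. On the 18725 genes with a region in both sexes, rho between female and male RNA was 0.993 and between female and male promoter accessibility 0.802. The 4 pairings of an RNA table with an ATAC table, within or across the sexes, gave rho between 0.324 and 0.331, closer to each other than the female and male values over each sex's own genes.

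**Figure D2:**
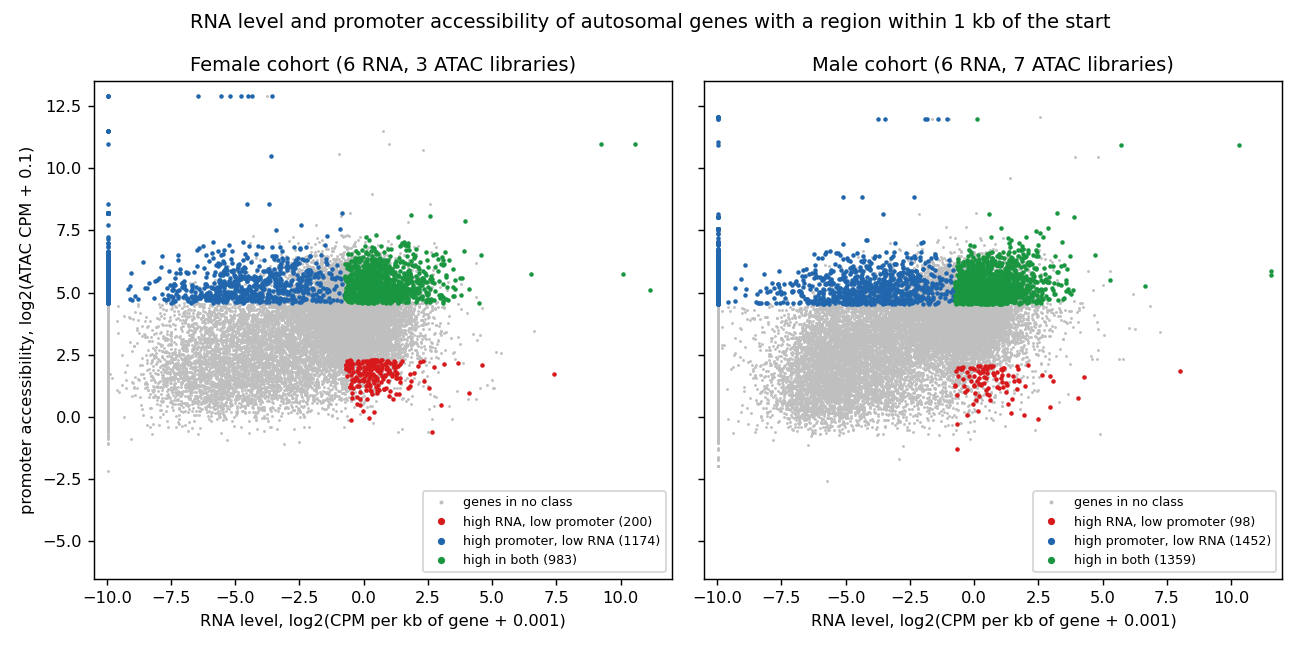
Each point is an autosomal gene with a region at its start, with RNA level as log2(CPM per kb + 0.001) on the horizontal axis and promoter accessibility as log2(ATAC CPM + 0.1) on the vertical axis, females left and males right. Colours mark 3 classes of genes and the bracketed counts their sizes, and the grey cloud spans the whole height at RNA levels above the middle of the axis.

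Genes that stood high in one assay and low in the other were then taken out. RNA was high when a gene was in the top 25% of genes of at least 1 CPM (at least 42.3 CPM in females, 39.9 in males) and above their median per kb (0.599 and 0.587 CPM per kb). A promoter was high in the top 25% of genes with a region (23.9 CPM in females, 23.1 in males) and low in the lowest 25% (4.83 and 4.13 CPM). RNA was low under 1 CPM and under that same median per kb. Being chosen by these values, the classes are described and not tested. Among genes without a region, Metap2 was just inside the female RNA threshold at 42.7 CPM and Neurl1b just outside at 42.3 CPM, and St8sia3 (40.6 CPM) and Brd3 (38.9 CPM) flanked the male one. Among low-RNA genes with no other start within 1 kb, Prrt4 was just inside the male promoter threshold at 23.2 CPM and Snai3 just outside at 22.9 CPM.

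High RNA without any region at the start was found for 128 of the 2870 high-RNA genes in females and 115 of 2896 in males. Over all genes of at least 1 CPM, 85.3% in females and 88.6% in males had a region. In both lists were 98 genes (76.6% of the female and 85.2% of the male list). Of the 98 genes, 88 were coding. They included ion channels and receptors of neurons: Kcnma1, the pore of the BK potassium channel, Cacna1c and Cacna1a, pores of L-type and P/Q-type calcium channels, and Ntrk3, the receptor for neurotrophin-3. Celf2, an RNA-binding splicing regulator, Tenm4, a teneurin adhesion protein, Rgs6, a regulator of G protein signalling, Nav2, a neuron navigator protein, and the transcription factor Mef2c were also among the 10 genes of highest RNA CPM.

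For 3 of the 10 genes the RefSeq promoter table held the table's start and another start with a region. Both sequences are printed because the RNA was high with no region at the table's start and a region at the other. Of several other starts, the one strongest in females was taken, and regions also lay elsewhere in these genes. Each line gives the 250 bases before a start, 5′ to 3′ on the gene's strand (RefSeq, GRCm38.p6), with every CpG in capitals. The lines cover chr13:83503784-83504033 (plus strand) and chr13:83523406-83523655 for Mef2c, chr6:119196410-119196659 (minus strand) and chr6:119108496-119108745 for Cacna1c, and chr7:96170994-96171243 (plus strand) and chr7:96211421-96211670 for Tenm4.
Mef2c at the table's start: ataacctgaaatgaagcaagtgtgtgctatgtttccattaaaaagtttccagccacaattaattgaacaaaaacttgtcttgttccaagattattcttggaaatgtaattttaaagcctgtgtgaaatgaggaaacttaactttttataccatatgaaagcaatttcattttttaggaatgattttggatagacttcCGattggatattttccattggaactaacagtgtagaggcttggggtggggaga
Mef2c at the other start: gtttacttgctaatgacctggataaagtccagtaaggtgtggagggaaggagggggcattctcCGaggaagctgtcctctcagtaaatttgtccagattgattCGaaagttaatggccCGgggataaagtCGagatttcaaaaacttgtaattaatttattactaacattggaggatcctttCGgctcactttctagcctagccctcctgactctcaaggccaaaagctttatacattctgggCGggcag
Cacna1c at the table's start: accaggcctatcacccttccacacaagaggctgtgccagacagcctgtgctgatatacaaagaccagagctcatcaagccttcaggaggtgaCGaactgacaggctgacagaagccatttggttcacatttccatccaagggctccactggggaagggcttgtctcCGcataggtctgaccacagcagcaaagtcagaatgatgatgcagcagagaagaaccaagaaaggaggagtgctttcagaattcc
Cacna1c at the other start: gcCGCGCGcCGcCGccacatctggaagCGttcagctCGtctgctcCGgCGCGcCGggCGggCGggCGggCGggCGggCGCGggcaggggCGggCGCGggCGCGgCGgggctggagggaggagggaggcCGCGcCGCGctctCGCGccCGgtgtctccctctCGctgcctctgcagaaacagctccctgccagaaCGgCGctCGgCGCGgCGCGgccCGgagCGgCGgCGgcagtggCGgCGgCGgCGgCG
Tenm4 at the table's start: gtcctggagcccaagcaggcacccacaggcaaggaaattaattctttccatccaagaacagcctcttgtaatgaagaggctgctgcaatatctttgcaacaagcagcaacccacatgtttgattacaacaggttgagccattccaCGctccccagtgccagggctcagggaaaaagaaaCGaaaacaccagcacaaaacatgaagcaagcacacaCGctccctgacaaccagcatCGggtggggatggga
Tenm4 at the other start: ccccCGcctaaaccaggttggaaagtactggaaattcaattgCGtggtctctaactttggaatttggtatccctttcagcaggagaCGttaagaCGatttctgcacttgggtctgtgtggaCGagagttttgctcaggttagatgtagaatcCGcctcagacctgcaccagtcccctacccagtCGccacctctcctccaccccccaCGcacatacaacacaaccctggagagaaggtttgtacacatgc

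Mef2c had 857 to 1037 CPM of RNA in the 6 female libraries (median 905 CPM) and 857 to 939 CPM in the 6 male libraries (median 899 CPM), or 5.71 and 5.52 CPM per kb. Its table start, with 1 CpG in the 250 bases, had no region, and the nearest lay 11590 bases away in females and 11265 in males. The other start, 19622 bases away with 6 CpGs, had a region of 57.4, 58.2 and 51.9 CPM in the 3 female libraries and of 75.1 to 84.4 CPM in the 7 male libraries. Every library of both sexes was thus above the high-promoter threshold at the second position. The libraries of a sex share 1 set of regions, so the lack of a region at the first position is not a value for each library. The strongest region in the gene body lay elsewhere, at 62.0 CPM in females and 208 CPM in males. In males a further RefSeq start, 69573 bases from the table's start, had 87.2 CPM.

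Cacna1c RNA was 1407 ± 64.7 CPM in females (2.31 CPM per kb) and 1229 ± 44.4 CPM in males (2.02 CPM per kb), n = 6 each. The 250 bases before its table start held 2 CpGs and no region, while those before its other start, 87923 bases from the first, held 48. Regions at that other start averaged 12.5, 12.3 and 13.46 CPM in the female libraries and 24.8 to 36.8 CPM in the male libraries. Tenm4 RNA was 1722 ± 56.7 CPM in females and 1607 ± 39.4 CPM in males, 2.33 and 2.17 CPM per kb. Its table start held 4 CpGs and its other start, 40425 bases away, 8. At the latter the female libraries gave 14.8, 17.5 and 18.3 CPM and the male libraries 30.3 to 35.8 CPM. Female values at the other start are means over 3 regions for Cacna1c and 2 for Tenm4. The strongest single region in the gene body in females was 28.3 CPM for Cacna1c and 25.7 CPM for Tenm4.

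The other genes named here also had high RNA per kb and no region at the listed start. Of these, 4 had a region at another RefSeq start: Celf2 with 33.9 CPM in females and 48.7 CPM in males, Kcnma1 with 9.72 and 36.97 CPM, Nav2 with 40.9 and 28.8 CPM and Rgs6 with 6.35 and 14.6 CPM. Celf2 RNA was 8993 to 10210.4 CPM in females and 8516 to 9023 CPM in males, which is 9.84 and 9.001 CPM per kb over its 969.9 kb, with the nearest region 19876 and 19821 bases from the start. Kcnma1 RNA was 2956 ± 90.2 CPM in females and 2831 ± 115 CPM in males, 4.08 and 3.90 CPM per kb, and its nearest regions lay 3942 and 3449 bases away. Cacna1a reached 3.77 and 3.75 CPM per kb with regions no nearer than 13049 and 7467 bases. Rgs6 stood at 2.42 and 2.22 CPM per kb, Nav2 at 2.05 and 1.85, and Ntrk3 at 1.67 and 1.95. These genes were chosen for high RNA, and in each the lowest library of either sex was far above the RNA threshold.

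Regions were present elsewhere in these genes. Of the 98, 93 in females and 95 in males had regions inside the gene body, and the median of the strongest such region was 23.1 and 22.5 CPM. Body regions were similarly common in the 2651 coding genes with high RNA in both sexes, at 2549 in females and 2580 in males. There the median of the strongest was 13.0 and 13.4 CPM. Among the 88 coding genes, 65 in females (73.9%) and 67 in males (76.1%) had another RefSeq start of the same symbol with a region. The same held for 11.4% and 12.3% of all 11492 coding genes of at least 1 CPM. It held for 17.96% and 18.6% of the 2651 coding genes with high RNA. Of the 796 coding genes of at least 1 CPM without a region in either sex, it held for 36.1% and 40.2%. These shares also depend on whether RefSeq lists any other start, which it did for 69 of the 88 genes. In the other sets it did so for 1818 of the 11492, 572 of the 2651 and 395 of the 796. Given such a start, a region lay there in females for 65 of 69, 1313 of 1818, 476 of 572 and 287 of 395. Only 23 of the 88 matched RefSeq at the table's start, so the other start was often not additional to a matched one. The median CpG count before the start was 3 in the 23 of the 88 genes that matched the RefSeq table, against 17 in the 8273 matched coding genes of at least 1 CPM and 4 in the 367 matched genes without a region in either sex. GGGCGG, searched on both strands of those 250 bases and itself holding a CpG, occurred in 3 of the 23 (13.0%), in 61.9% of the 8273, in 26.7% of the 367 and in 32.7% of all 32851 RefSeq promoters in the table. When the strongest of the table's start and the RefSeq starts was used for every gene, 31 genes in place of 98, among them 3 of the 10 of highest RNA, had high RNA and no region in both sexes, an alternative chosen after seeing the data.

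High RNA with a weak region at the start was, of these classes, the one shared least between the sexes. It held 200 genes in females and 98 in males, with 53 in both (26.5% and 54.1% of each list), 44 of them coding. The 8 genes of highest RNA CPM were Hs3st4, a heparan sulfate sulfotransferase, Srrm2, a splicing scaffold of nuclear speckles, Grik3, a kainate receptor subunit, Rap1gap2, which turns off the GTPase Rap1, Runx2, the transcription factor of bone formation, Pitpnm2, a phosphatidylinositol transfer protein, Chd5, a chromatin remodeller, and Tmem131. The 250 bases before Grik3 (chr4:125490446-125490695, plus strand) and Hs3st4 (chr7:123982578-123982827, plus strand) are shown because they are rich in CpGs while the regions there were weak (CpG in capitals, RefSeq, GRCm38.p6).
Grik3: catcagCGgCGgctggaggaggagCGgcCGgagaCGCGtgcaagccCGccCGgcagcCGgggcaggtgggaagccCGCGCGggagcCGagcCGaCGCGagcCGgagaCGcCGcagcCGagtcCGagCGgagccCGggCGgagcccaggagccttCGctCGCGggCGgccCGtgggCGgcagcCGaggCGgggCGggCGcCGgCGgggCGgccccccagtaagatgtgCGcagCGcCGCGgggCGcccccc
Hs3st4: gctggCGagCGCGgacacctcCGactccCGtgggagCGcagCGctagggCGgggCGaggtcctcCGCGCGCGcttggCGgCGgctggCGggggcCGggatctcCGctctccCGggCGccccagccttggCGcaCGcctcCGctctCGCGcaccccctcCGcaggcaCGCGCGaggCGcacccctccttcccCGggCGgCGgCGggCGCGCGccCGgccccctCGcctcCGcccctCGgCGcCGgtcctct

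Grik3 RNA was 488 to 606 CPM in females and 451 to 531 CPM in males, 2.35 and 2.21 CPM per kb. Its promoter, with 42 CpGs in the 250 bases, gave 3.76, 4.69 and 4.05 CPM in the female ATAC libraries and 2.77 to 4.36 CPM in the male ones (median 4.06 CPM). Every library stood below the median promoter of expressed coding genes, 15.7 CPM in females and 16.7 CPM in males. Hs3st4 RNA was 949 to 1338 CPM in females and 641 to 935 CPM in males, 2.66 and 1.87 CPM per kb, and female libraries lay above all male libraries. Its promoter, with 43 CpGs, gave 3.11, 1.94 and 2.54 CPM in females and 2.84 to 3.76 CPM in males.

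Srrm2 had the most RNA per kb of the 8, at 24.3 CPM per kb in females and 19.3 in males, with a promoter of 4.16 ± 0.430 CPM (n = 3) and 2.99 ± 0.370 CPM (n = 7). Chd5 had 3.57 and 3.93 CPM per kb of RNA and a promoter of 2.63 ± 0.626 and 2.24 ± 0.365 CPM. Runx2 had 0.908 and 0.957 CPM per kb and a promoter of 1.29 ± 0.139 and 1.32 ± 0.465 CPM, with no CpG in its 250 bases. The other named genes had promoters between 1.53 and 2.97 CPM. Another RefSeq start of Srrm2, Pitpnm2 and Tmem131 had a stronger region in females, at 18.2, 46.3 and 21.1 CPM. Of the 8 genes, 4 stayed in the class in both sexes with the strongest of the table's start and the RefSeq starts (chosen after seeing the data), 5 with regions summed, 6 with a window of 2 kb and 1 with thresholds at 10%. Weak regions had a median width of 355 bases in females and 735 in males, against 2355.5 and 4002.5 in genes high in both assays. Promoter CPM is not divided by width, so choosing genes by it favours this difference, which is not a separate trait of the class. Weakness did not go with few CpGs: the median was 22.5 in the 28 matched coding genes, 19 in the 572 high in both and 17 in all 8273 matched.

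**Figure D3:**
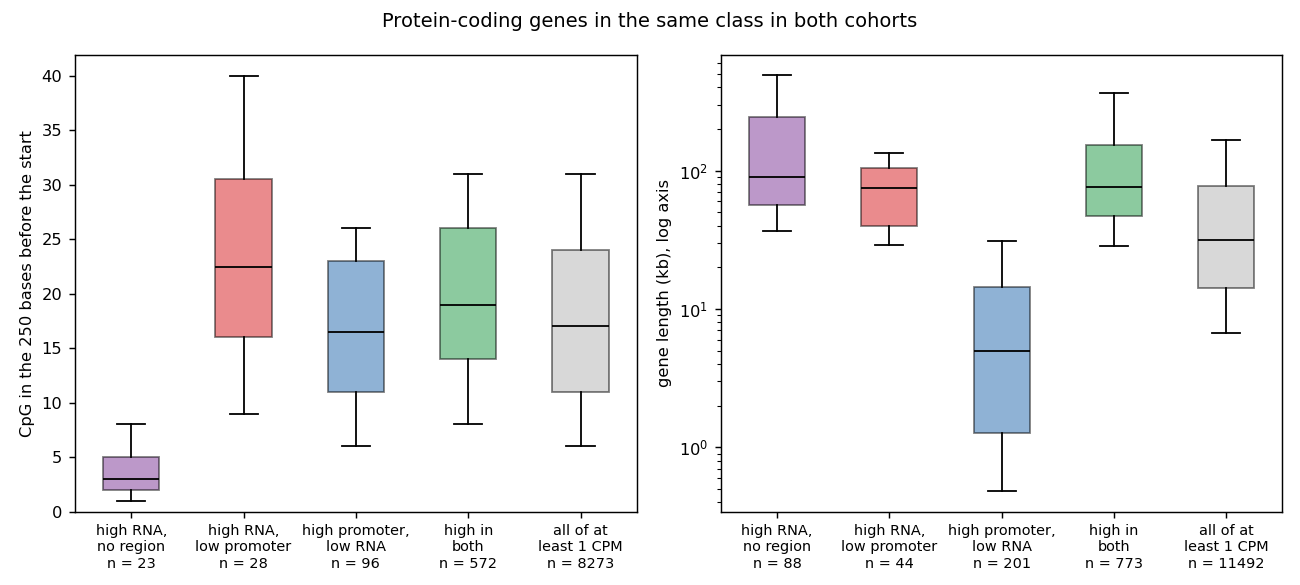
Left, number of CpGs in the 250 bases before the start, and right, gene length in kb on a log axis, for coding genes in the same class in both sexes and for all coding genes of at least 1 CPM. Boxes span the quartiles with the median as a line and whiskers the 10th to 90th percentile. Genes with high RNA and no region sit low for CpGs (median 3). Genes with a high promoter and low RNA are short (median 4.98 kb, against 17.9 kb in all autosomal coding genes), which the limit of 1 CPM favours.

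The opposite class, a strongly accessible promoter with little or no RNA, held 1174 of the 4772 high-promoter genes in females and 1452 of 5623 in males. In both were 854 genes (72.7% and 58.8% of each list). Of all 19085 and 22487 genes with a region, 7610 and 10356 had under 1 CPM of RNA. The classes come from pools of unlike size, as RNA was low in 35343 and 35078 genes and high in 2870 and 2896. Their sizes are therefore not compared. Of the 854, 201 were coding, 143 were long noncoding RNA genes, 164 small RNA or rRNA genes, and 311 had no type in RefSeq. They were short, with a median of 1.35 kb against 3.82 kb over all autosomal genes. The limit of 1 CPM is not divided by length, so the rule itself favours short genes. Most lay beside another gene: 720 in females and 740 in males shared their region with another gene's start, and in 445 and 473 cases that other gene had at least 1 CPM. A region was also shared in 288 and 313 of the 796 genes high in both assays. The same was true of 3442 and 3577 of the 10283 coding genes of at least 1 CPM with a region in both sexes. Among the 201 coding genes of the class it was 154 and 158. Only 343 had no other gene start within 1 kb, 70 of them coding.

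Most listed replication-dependent histone genes, which pack newly copied DNA and are transcribed mainly in dividing cells, were in the class. All 25 had a region in both sexes, 22 had under 1 CPM of RNA, and 20 were among the 854 genes. Of all coding genes with a region and under 1 CPM, 311 of 2020 in females and 316 of 2719 in males were in the class. The histone genes are short, with a median of 0.63 kb, which the limit of 1 CPM favours. Their median promoter accessibility was 51.9 CPM in females and 40.1 CPM in males, against 14.2 CPM in all coding genes with a region in each sex. Hist1h4a, Hist1h3a and Hist1h1a lay on 1 region of 4519 bases in females and 4891 in males, with 109 to 119 CPM in the 3 female and 76.4 to 93.8 CPM in the 7 male libraries. Hist1h3a had no RNA count in any library, and Hist1h4a had at most 0.317 CPM and Hist1h1a at most 0.282 CPM in 1 library. Histone genes have near-identical copies, and reads that the authors' counting could split or drop leave their low RNA levels uncertain.

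Genes with no other start within 1 kb follow, some of which shared a wide region with a gene farther away. Membership turned on how wide regions were treated: of the 12 named genes of the class, 3 stayed in it in both sexes when regions were assigned by their midpoint, and 7 when accessibility was taken per kb of region width. The 250 bases before the starts of Fndc9 (chr11:46235307-46235556, plus strand), Fbxo5 (chr10:5805466-5805715, minus strand) and Lrrc26 (chr2:25289661-25289910, plus strand) are printed because their CpG counts differ widely while all 3 regions were strong (CpG in capitals, RefSeq, GRCm38.p6).
Fndc9: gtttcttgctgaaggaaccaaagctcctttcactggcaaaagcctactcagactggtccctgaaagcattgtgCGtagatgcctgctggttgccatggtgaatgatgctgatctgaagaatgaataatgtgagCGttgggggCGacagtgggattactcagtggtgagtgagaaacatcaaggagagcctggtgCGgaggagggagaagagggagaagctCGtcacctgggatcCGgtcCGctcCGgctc
Fbxo5: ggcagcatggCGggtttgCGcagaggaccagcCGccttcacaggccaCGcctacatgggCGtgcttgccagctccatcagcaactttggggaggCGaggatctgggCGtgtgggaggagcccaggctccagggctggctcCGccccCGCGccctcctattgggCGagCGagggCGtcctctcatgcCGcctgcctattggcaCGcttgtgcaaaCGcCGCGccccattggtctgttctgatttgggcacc
Lrrc26: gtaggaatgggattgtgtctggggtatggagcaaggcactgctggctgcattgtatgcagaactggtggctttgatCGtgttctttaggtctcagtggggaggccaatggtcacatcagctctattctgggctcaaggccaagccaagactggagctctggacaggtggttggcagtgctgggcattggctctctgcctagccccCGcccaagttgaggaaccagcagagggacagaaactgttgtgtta

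Fndc9, with 8 CpGs, had 79.9, 75.7 and 82.5 CPM at its promoter in the female and 85.1 to 92.8 CPM in the male libraries, on a region of 4756 and 12829 bases that no other gene start shared. Its RNA was 0.238 to 0.637 CPM in females and 0.598 to 1.19 CPM in males. Fbxo5, an inhibitor of the anaphase-promoting complex of dividing cells, had 18 CpGs. It gave 82.0, 97.9 and 84.5 CPM at the promoter in females and 54.6 to 69.6 CPM in males, and 0.327 to 1.04 CPM and 0.137 to 0.501 CPM of RNA. Both genes were chosen for these mean levels, and each ATAC library was above the promoter threshold and nearly every RNA library under 1 CPM.

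Lrrc26, which encodes an auxiliary subunit of the BK channel, had 2 CpGs and shared 1 region with Tmem210 and Grin1os. That region gave 70.7, 88.0 and 91.0 CPM in females and 45.5 to 84.4 CPM in males and was 8117 and 13792 bases wide. Lrrc26 RNA was at most 0.163 CPM in a female and 0.334 CPM in a male library, while Grin1os had a mean of 1.80 CPM in females and 4.03 CPM in males. Vsig2 had 69.1 ± 10.8 CPM at the promoter in females and 97.8 ± 6.41 CPM in males. In males its region, 16278 bases wide, also covered the start of Nrgn, the gene of the postsynaptic protein neurogranin, which had 102 CPM of RNA against 0.564 CPM for Vsig2. Trip10, a Cdc42-interacting adaptor, had 113 ± 5.41 and 67.4 ± 6.47 CPM at a region it shared with Gpr108 (8.15 and 8.38 CPM of RNA), and 0.891 ± 0.487 and 0.823 ± 0.225 CPM of RNA itself. Without female RNA replicate 6, Trip10 left the class in females.

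Part of the class had no counts at all. RNA was 0 in every library of both sexes for 341 of the 854 genes, and 213 of those were covered over their whole length by another gene on the same strand. The named examples were Rusc1, an adaptor protein gene with a promoter of 86.2 ± 8.24 CPM in females and 55.0 ± 6.63 CPM in males, and Smpd3, the gene of a neutral sphingomyelinase, with 85.5 ± 6.20 and 51.8 ± 1.49 CPM. Tubb3, the neuronal tubulin, was likewise fully covered, listed at 0 in every RNA library, and had 21.0 ± 0.450 and 24.5 ± 4.196 CPM at its promoter. Among all coding genes with a region in both sexes, 237 of the 430 covered over at least 50% of their length by a same-strand gene (55.1%) were at 0 throughout, against 83 of 9560 (0.868%) with no same-strand overlap and 0 of 2359 with an overlap under 50%. A count of 0 in a covered gene therefore cannot be read as absence of its RNA.

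The highest promoter values of all belonged to small predicted genes that crowd on few regions. Gm10721, Gm10715 and Mir101c, picked after their values were seen, shared 1 region of 7586 CPM in females and 4063 CPM in males with 0 to 0.128 CPM of mean RNA. Gm26917 had 1986 ± 111 CPM at its promoter in females and 1961 ± 483 CPM in males, beside 5085 ± 768 and 4211 ± 173 CPM of RNA. Such genes can have near-identical copies, so their levels are uncertain.

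Genes high in both assays numbered 983 of the 2870 high-RNA genes in females and 1359 of 2896 in males. In both sexes were 796, 773 of them coding. Pcdh9, a protocadherin adhesion gene, is shown as the reference for a strong promoter at the listed start of a gene with high RNA (250 bases, chr14:93890680-93890929, minus strand, 18 CpGs in capitals, RefSeq, GRCm38.p6).
Pcdh9: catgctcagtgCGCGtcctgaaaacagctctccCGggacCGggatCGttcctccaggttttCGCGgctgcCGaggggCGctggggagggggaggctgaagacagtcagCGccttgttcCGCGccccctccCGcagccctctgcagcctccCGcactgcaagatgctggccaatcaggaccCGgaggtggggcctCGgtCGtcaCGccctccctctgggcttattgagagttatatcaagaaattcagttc

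Pcdh9 had 108, 94.0 and 94.6 CPM at the promoter in the female and 96.0 to 116 CPM in the male libraries, and 4247 to 4956 CPM and 3461 to 4065 CPM of RNA (5.44 and 4.30 CPM per kb). Camk2a, the alpha subunit of the kinase CaMKII, had a promoter of 235 ± 6.04 CPM in females and 260.05 ± 9.35 CPM in males, with 15.5 and 14.8 CPM per kb of RNA. Pcdh7, another protocadherin, had 127 ± 7.05 and 127 ± 8.90 CPM at the promoter and 2.79 and 2.55 CPM per kb of RNA. Cadm2, a synaptic adhesion gene, had 108 ± 1.02 and 92.8 ± 6.20 CPM and 4.09 and 3.71 CPM per kb, and Rgs7bp, a partner of RGS7, 104 ± 2.59 and 105 ± 7.96 CPM and 3.39 and 3.56 CPM per kb. Cwc22, a splicing factor gene with near-identical copies in the mouse genome, differed between libraries of 1 group more than any of these, from 35.1 to 699.7 CPM of RNA in females and from 142 to 816 CPM in males, with promoters from 145 to 362 and from 33.5 to 269.6 CPM. Its levels are therefore uncertain.

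**Figure D4:**
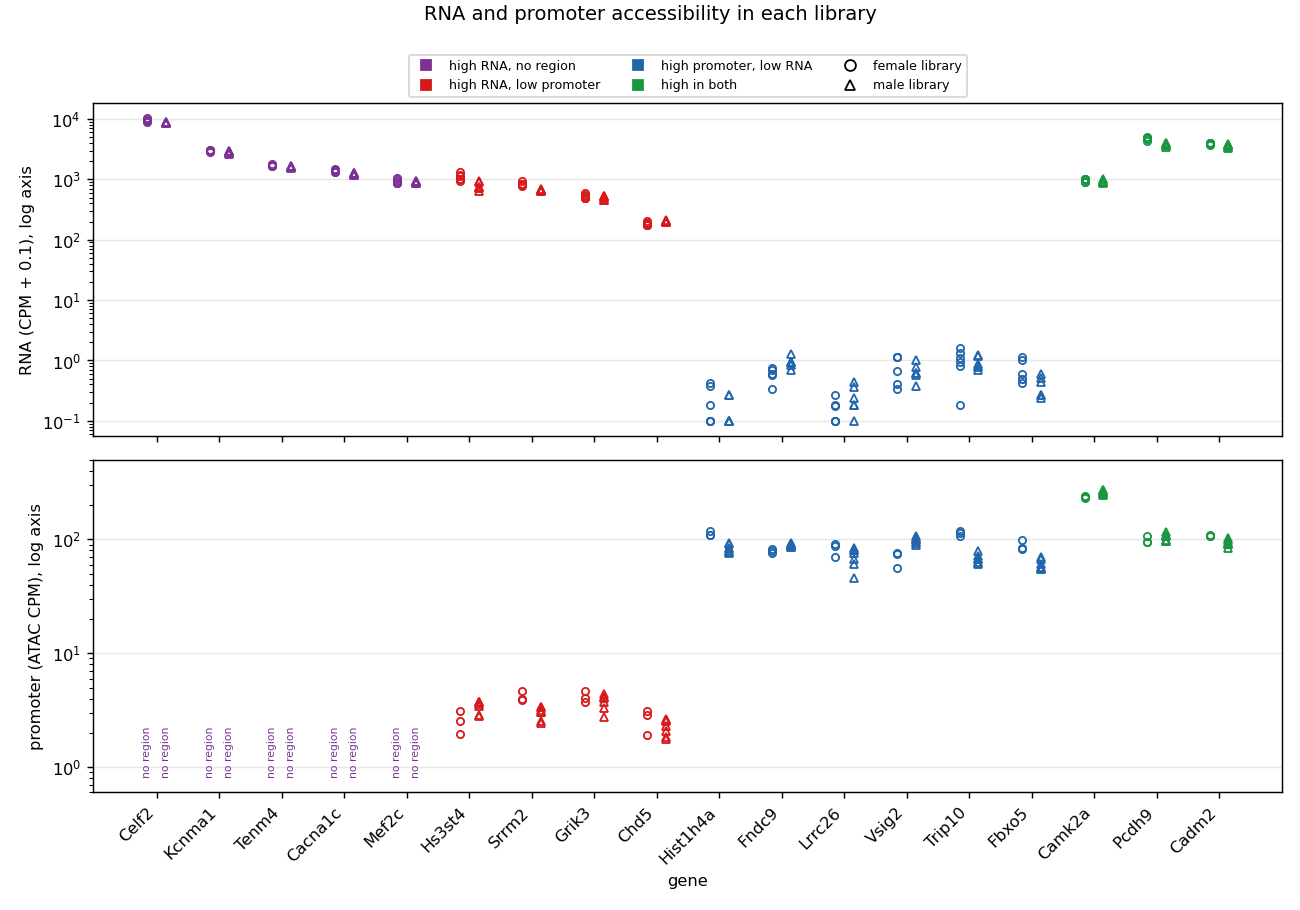
RNA level as CPM + 0.1 (top) and promoter accessibility as ATAC CPM (bottom), both on log axes, for 18 named genes in every library, females as circles and males as triangles and colours by class. Classes and genes were chosen by these values, so the distance between classes is not a result, and the classes with high RNA overlap in RNA. The 5 genes marked as having no region have no promoter value.

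Lists of genes with a known role were then read in both assays. Synaptic genes carried much RNA per kb, on promoters below the median of expressed coding genes in females and at or above it in males. The 19 genes of the postsynaptic density had a median of 3.97 CPM per kb in females and 4.12 in males, with a median promoter of 11.6 and 19.2 CPM in the 18 with a region. The 20 presynaptic vesicle genes stood at 3.92 and 4.04 CPM per kb with promoters of 12.03 and 16.7 CPM. Of the postsynaptic genes 3 in females and 6 in males were high in both assays, and of the presynaptic genes 6 and 7. Over all 11492 coding genes of at least 1 CPM the medians were 0.661 CPM per kb in both sexes and 15.7 and 16.7 CPM. Shank1, a postsynaptic scaffold, had 11.6 and 11.9 CPM per kb of RNA and a promoter of 4.87 ± 1.08 and 5.39 ± 1.15 CPM. Grin1, the obligatory NMDA receptor subunit, had 13.9 and 14.5 CPM per kb with 20.2 ± 3.28 and 12.2 ± 2.16 CPM.

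Immediate early genes, which neurons switch on within minutes of activity, had strong promoters and less RNA per kb than the synaptic lists. Of 24 listed, 23 had a region, with a median promoter of 42.1 CPM in females and 47.8 CPM in males and a median RNA of 0.694 and 1.19 CPM per kb. Arc, a synaptic plasticity gene, gave 5.02 to 23.2 CPM of RNA in females and 8.45 to 51.03 CPM in males, a wider spread between libraries than its promoter, 99.4 to 146 and 43.9 to 81.5 CPM. Egr1, a transcription factor, had 33.4 ± 3.03 CPM at the promoter in females and 106 ± 19.8 CPM in males, and 16.2 ± 6.58 and 30.1 ± 12.9 CPM of RNA. The female Egr1 promoter value is a mean over 3 regions with a mean width of 1432 bases, and the male value comes from 1 region of 10003 bases. Klf4, a transcription factor of stem cells, had 20.9 ± 2.07 and 33.5 ± 2.18 CPM at the promoter with RNA at 0.159 ± 0.191 and 0.042 ± 0.070 CPM. Heat shock genes also had strong promoters for their RNA, with medians of 48.9 and 35.0 CPM at the promoter and 0.942 and 1.08 CPM per kb of RNA. Hspa8, a constitutive chaperone, had 95.4 ± 12.5 and 82.0 ± 7.46 CPM at the promoter and 6.59 ± 1.82 and 9.11 ± 3.48 CPM of RNA.

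The listed ribosomal protein and respiratory chain genes had regions without exception, and their median RNA per kb was near or above that of expressed coding genes. All 46 ribosomal protein genes had a region in both sexes, with a median RNA of 0.579 and 0.667 CPM per kb and promoters of 16.5 and 12.4 CPM. All 42 respiratory chain genes had one too, at 0.976 and 1.17 CPM per kb and 17.5 and 16.8 CPM. Gapdh, the glycolytic enzyme, had 4.41 ± 0.407 and 3.56 ± 0.756 CPM of RNA (0.928 and 0.748 CPM per kb) under a promoter of 78.4 ± 5.62 and 70.7 ± 6.73 CPM. Gpi1, another glycolytic enzyme, was the other way round, with 4.67 and 5.44 CPM per kb and a promoter of 6.85 ± 0.862 and 7.196 ± 0.803 CPM. Rpl13 and Cox4i1 were listed at 0 in every RNA library and were fully covered by a gene on the same strand.

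Among the 25 very long adhesion and splicing genes, RNA was high (2.504 and 2.68 CPM per kb) and promoters were strong (24.6 and 27.2 CPM). Rbfox1, a neuronal splicing factor, stood apart, with 9.72 and 7.68 CPM per kb of RNA and no region at the listed start in females and one of 1.21 ± 0.223 CPM in males. Ctnna3, an alpha-catenin, had the opposite pair of values, with 0.029 and 0.032 CPM per kb and a promoter of 36.1 ± 1.75 and 44.1 ± 2.65 CPM. Of the long noncoding RNAs, Malat1, retained in nuclear speckles, had 2269 and 2976 CPM per kb of RNA under a promoter of 33.8 ± 2.43 and 57.6 ± 13.3 CPM. Meg3 and Rian, imprinted RNAs named after their values were seen, fell in the weak-promoter class in both sexes, Meg3 with a female RNA mean of 5216 CPM and a promoter of 3.24 CPM.

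Genes of other cell types and of earlier development differed by list in how many had a region. Of 55 developmental regulators, 53 had under 1 CPM of RNA in either sex, and 5 had a region in females and 33 in males, where the median promoter was 2.36 CPM. The female and male tables hold 165184 and 192919 regions with median widths of 445 and 821 bases, from different numbers and depths of libraries, and this difference in regions was not traced further. Of 34 genes restricted to liver, muscle or skin, 6 in females and 7 in males had a region. Microglial genes had a region in 1 and 4 of 14 cases, oligodendrocyte genes in 5 and 6 of 14, vascular genes in 6 and 11 of 15 and astrocyte genes in 12 and 13 of 15. The 20 genes of GABAergic interneurons, a minority of cortical neurons, had regions in 14 and 17 cases but weak ones, with medians of 4.12 and 4.52 CPM.

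**Figure D5:**
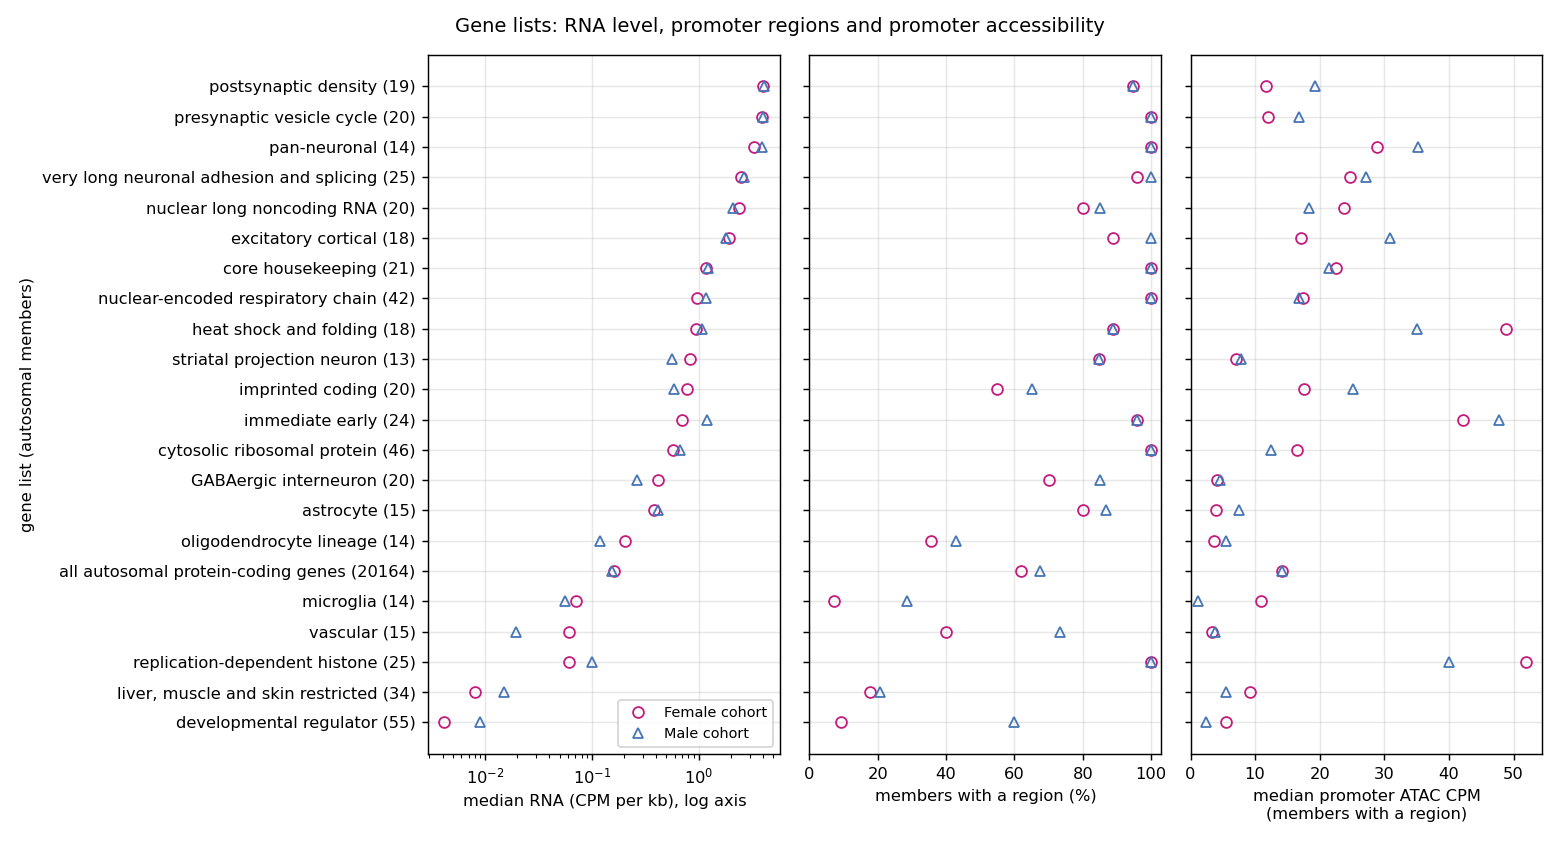
Median RNA in CPM per kb on a log axis (left), percentage of members with a region within 1 kb of the start (middle) and median promoter accessibility in ATAC CPM of those members (right), for each gene list, females as circles and males as triangles, with the number of autosomal members in brackets. Lists are ordered by RNA per kb; the histone, immediate early and heat shock lists lie far right for promoter accessibility although their RNA is lower than that of the synaptic lists at the top.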

How the data were processed

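Tables as deposited by the authors were used: raw read counts for each Ensembl gene, taken over exons and introns, and raw counts for each ATAC region, where females and males have their own regions. Per the submitters' processing notes, the tools were STAR 2.5.4, SAMtools 1.3.1, bedtools, MACS2 2.1.1, DiffBind 3.2.2, edgeR and DESeq2 1.16.1, with build mm10. Which program counted reads, whether it used strand and how regions were merged is not given in the sources used here. Columns of the male RNA table, whose header lacks 1 name, were matched by position, and region starts were used as they stand. The 21 sample columns of enriched mice were not used.

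Counts were divided by the library's total to give CPM and averaged over libraries (Python 3.11.15, pandas 2.3.3, scipy 1.17.1). Gene starts are the start or end in the female RNA table by strand, and the mean was taken over regions overlapping 1000 bases to either side. Rank correlations and log2 values with a pseudocount of 0.1 were computed across genes, and the scripts were tested on simulated data. Alternatives, among them TMM scaling with edgeR 4.0.16, are given in the closing section. Symbols matched 53274 of 53379 genes, and RefSeq promoters (GRCm38.p6) within 1000 bases of the start 16469 genes.

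Named genes are coding genes in the same class in both sexes, without predicted-gene symbols: the 10 and 8 of highest RNA CPM with no and with a weak region, the 12 of highest promoter CPM with low RNA and no other start within 1 kb, the 6 highest in both, and from each list the 2 highest in RNA per kb, the strongest promoter and the lowest RNA with a region. The classes, members and lists were chosen with earlier results of these data known. Some genes that this rule names are not reported here. No test was made.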

Additional observations from a re-analysis of the deposited data

Results flagged for a closer look

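In 143 sets of library values of the named genes given in the text, and of rho by library, 8 had 1 library apart from the others by a gap of more than Dixon's 95% critical value, and chance gives about 1 set in 20. Cacna1a RNA was highest in female replicate 6 at 994.1 CPM, with the next library at 950.5 CPM. Pcdh9 RNA was lowest in the same library at 4247 CPM, against 4712 CPM in the next. Ctnna3 RNA was highest in female replicate 2 at 67.7 CPM, against 46.8 CPM in the next. That library also held the highest summed levels of astrocyte (147 CPM), oligodendrocyte (266 CPM) and inhibitory neuron (182 CPM) markers. The part of those cells in the Ctnna3 value was not tested. Pitpnm2 RNA was highest in male replicate 3 at 310.4 CPM, against 282.8 CPM. The Gapdh promoter was lowest in male ATAC replicate 6 at 56.6 CPM, against 69.1 CPM. The Meis2 promoter was highest in that library at 71.8 CPM, against 64.6 CPM. Peg3 RNA was lowest in male replicate 6 at 110.1 CPM, against 314 CPM. Slc1a2 RNA, an astrocyte list member, was highest in female replicate 2 at 1046 CPM, against 797 CPM. Leaving out any 1 library left Cacna1a and Pitpnm2 in their classes.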

How the results depend on the processing

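For each of the 3 classes and both correlations, leaving out 1 library at a time kept every count within 1.5 times: rho ranged from 0.336 to 0.345 in females and 0.434 to 0.438 in males, Pearson's r from 0.322 to 0.332 and 0.428 to 0.432, and the share of genes of at least 1 CPM with a region (85.3% and 88.6%) from 85.2% to 85.7% and 88.4% to 88.8%. High RNA without a region ranged from 128 to 130 genes in females, 114 to 117 in males and 97 to 99 in both. High RNA with a weak region ranged from 187 to 211, 92 to 101 and 50 to 55. A high promoter with low RNA ranged from 1164 to 1190, 1443 to 1461 and 843 to 862. Of the 30 named genes of these classes only Trip10 left its class, without female RNA replicate 6. No paired analysis was possible because the results come from no test between groups.

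The correlations, rho then r, were 0.373 and 0.355 in females on RNA per kb. They were 0.132, 0.142, 0.284 and 0.287 (females, then males) for genes of at least 1 CPM, and 0.587, 0.641, 0.567 and 0.624 with 0 for genes without a region. With a pseudocount of 1, r was 0.296 and 0.412. Per kb of region width, the female r was 0.315 and the male rho 0.472, and 7 of the 12 named genes with a high promoter and low RNA stayed in that class. Summing regions gave a female rho of 0.377, r of 0.374 and 130 genes with high RNA and a weak region.

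A window of 500 bases gave 0.304, 0.299, 0.405 and 0.402, shares with a region of 83.6% and 87.2%, 1 vascular gene in females, and 3 and 4 liver, muscle and skin genes with a region. A window of 2 kb gave 0.373, 0.350, 0.453 and 0.446, shares of 87.3% and 90.4%, and 2 microglial genes in females.

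Region midpoints within 1 kb, which leave out wide regions, gave 0.371, 0.372, 0.483 and 0.481 and shares of 82.4% and 75.8%. High RNA without a region then held 255 genes in females, 758 in males and 207 in both, and a high promoter with low RNA 955 in males. Of the 12 named genes of the latter class, 3 stayed in it in both sexes. Members with a region fell to 2 vascular genes in females and, in males, to 7 pan-neuronal, 11 excitatory, 8 immediate early, 7 postsynaptic, 13 presynaptic, 4 liver, muscle and skin and 9 long noncoding RNA genes.

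Coding genes alone gave 0.231 and 0.263 in females and a rho of 0.420 in males, shares of 88.9% and 92.1%, 361, 189 and 111 genes with a weak region and 259, 253 and 159 with a high promoter and low RNA (females, males, both). Genes without another start within 1 kb gave 0.433, 0.406, 0.494 and 0.483, shares of 81.3% and 85.2%, and 108, 51 and 27 and 597, 858 and 435 genes in those classes. Thresholds at 10% in place of 25% left 58, 46 and 40 genes without a region, 20, 9 and 5 with a weak one and 540, 722 and 368 with a high promoter and low RNA.

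A further 2 choices were added after seeing the data and are marked so here: leaving out genes covered over 50% of their length by a same-strand gene gave a male rho of 0.472, r of 0.461, and 912 genes in males and 569 in both with a high promoter and low RNA. The strongest of the table's start and the RefSeq starts gave 0.355, 0.344, 0.449 and 0.445, shares of 88.2% and 91.3%, and 41, 39 and 31 genes with high RNA and no region. Of the named genes without a region 3 of 10 then stayed in the class, against 10 of 10 under every other choice. TMM scaling and RNA CPM without the condition per kb moved none of these counts by over 1.5 times.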

Other observations

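Peg3, an imprinted zinc finger gene, had 347 to 421 CPM of RNA in the female libraries, whereas the male libraries ran from 110.1 to 365 CPM, with the lowest in replicate 6 and the next at 314 CPM. Its promoter gave 101 ± 20.4 CPM in females and 41.3 ± 3.15 CPM in males. Meis2, a transcription factor of striatal projection neurons, had nearly the same RNA in the sexes, 292 ± 45.3 and 310 ± 21.3 CPM, with a promoter of 9.28 ± 0.453 CPM in females and 62.4 ± 4.54 CPM in males. The female Meis2 value is a mean over 4 regions with a mean width of 786.5 bases and the male value comes from 1 region of 8812 bases. Slc1a2, the glial glutamate transporter, had a promoter of 18.8 ± 0.7002 CPM in females and 63.9 ± 4.36 CPM in males, with 796 ± 128 and 671 ± 35.1 CPM of RNA. Its female value is a mean over 2 regions with a mean width of 1319.5 bases and its male value comes from 1 region of 10781 bases.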
